A study of Mus musculus with 16 samples.

Results

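Bile acid synthesis and transport in these mice was followed through 33 genes, which were taken by symbol from the 48709 gene identifiers of the count table. Each of the 33 matched 1 row. They cover the enzymes that turn cholesterol into bile acids, the pumps and carriers that move bile acids and their lipid partners across the hepatocyte membrane, and 4 genes that control synthesis. The animals were 8 untreated females of strain C57BL/6J, aged 3 to 6 months, and RNA was read in their livers and hearts. Of these, 4 were wild type (WT) and 4 were quadruple knockouts (QKO) of the methionine sulfoxide reductase genes Msra, Msrb1, Msrb2 and Msrb3. Every animal gave a liver and a heart, which makes 4 groups of 4 libraries (WT liver, QKO liver, WT heart and QKO heart), and p-values measure the spread between animals. All groups share strain, sex and age range. The labels say neither how the alleles were made nor when in the day, or in which feeding state, tissue was taken.

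Hepatocytes make bile acids from cholesterol by a classic route that starts with hydroxylation of the sterol ring and an alternative route that starts with oxidation of the side chain. The products are joined to taurine or glycine, pumped into the bile canaliculus, and recovered from portal blood by carriers on the other face of the cell. Bile acids limit their own synthesis through the nuclear receptor FXR, encoded by Nr1h4, through its target SHP, encoded by Nr0b2, and through a gut hormone that reaches the liver receptor pair of Fgfr4 and Klb.

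Total counts were 37.9 M to 67.9 M per liver library and 42.1 M to 72.6 M per heart library. In 6 hearts 31.4% to 56.9% of all counts fell on loci of nuclear ribosomal RNA, against 7.43% for WT heart 4 and 0.291% for QKO heart 4. Protein-coding genes had 26.9 M and 28.2 M counts in those 2 hearts and 9.21 M to 14.9 M in the others. Levels are given as counts per 1 M counts (CPM), with library sizes scaled over all 16 libraries by the trimmed mean of M-values. Of the targeted genes, Msrb2 averaged 4.46 CPM in WT liver and 0.0295 CPM in QKO liver and Msrb3 8.85 and 2.24 CPM, while Msra stood at 55.5 and 33.9 CPM and Msrb1 at 98.5 and 75.6 CPM. In heart the means of WT and QKO were 12.96 and 0.161 CPM for Msrb2, 48.3 and 7.88 CPM for Msrb3 and 10.3 and 7.16 CPM for Msra. Msrb1 went the other way in heart, at 13.8 to 16.1 CPM in WT and 18.5 to 23.7 CPM in QKO, so its RNA does not check the knockout label. A list of 22 hepatocyte markers summed to 52436 to 69473 CPM in the 8 livers and to 86.0 to 484 CPM in the hearts. Cardiomyocyte markers summed to 42919 to 51134 CPM in the hearts, so the defining markers of each labelled tissue were present. WT livers 3 and 4 stood apart by 789 and 239 CPM of pancreatic acinar transcripts, against 3.42 to 6.60 CPM in the other livers. Skeletal muscle transcripts reached 221 CPM in WT liver 4, which had the lowest hepatocyte marker sum. The genotype, spread, ratio and tissue results are given with and without these 2 livers.

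In liver the 33 genes spanned a wide range of levels. Levels were compared between genes as CPM per kb of exon, since a longer transcript yields more reads. The highest in WT liver was Slc27a5, the ligase that activates bile acids before conjugation, at 222 ± 30.3 CPM per kb (SD, n = 4). It was followed by the uptake carrier Slco1b2 at 149 ± 42.0, by the mitochondrial sterol 27-hydroxylase Cyp27a1 at 107 ± 16.9, and by the sodium-dependent bile acid carrier Slc10a1 at 94.3 ± 29.9 CPM per kb. Baat, which joins bile acids to taurine or glycine, stood at 64.6 ± 15.6 CPM per kb and the bile salt export pump Abcb11 at 64.4 ± 7.43 CPM per kb. Cyp7a1, the rate-limiting hydroxylase of the classic route, came after all of these at 31.5 ± 15.3 CPM per kb. At the bottom were Slc51b and Slc51a, the subunits of a basolateral organic solute transporter, at 0.415 ± 0.424 and 0.0549 ± 0.0150 CPM per kb. Of the neighbours in this order, the WT libraries of Slc27a5 and Slco1b2, of Atp8b1 and Fgfr4, and of Slc51b and Slc51a did not overlap, and all other neighbours overlapped. The same 6 genes led in QKO liver, from Slc27a5 at 247 ± 29.6 to Baat at 67.2 ± 7.41 CPM per kb.

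**Figure D1:**
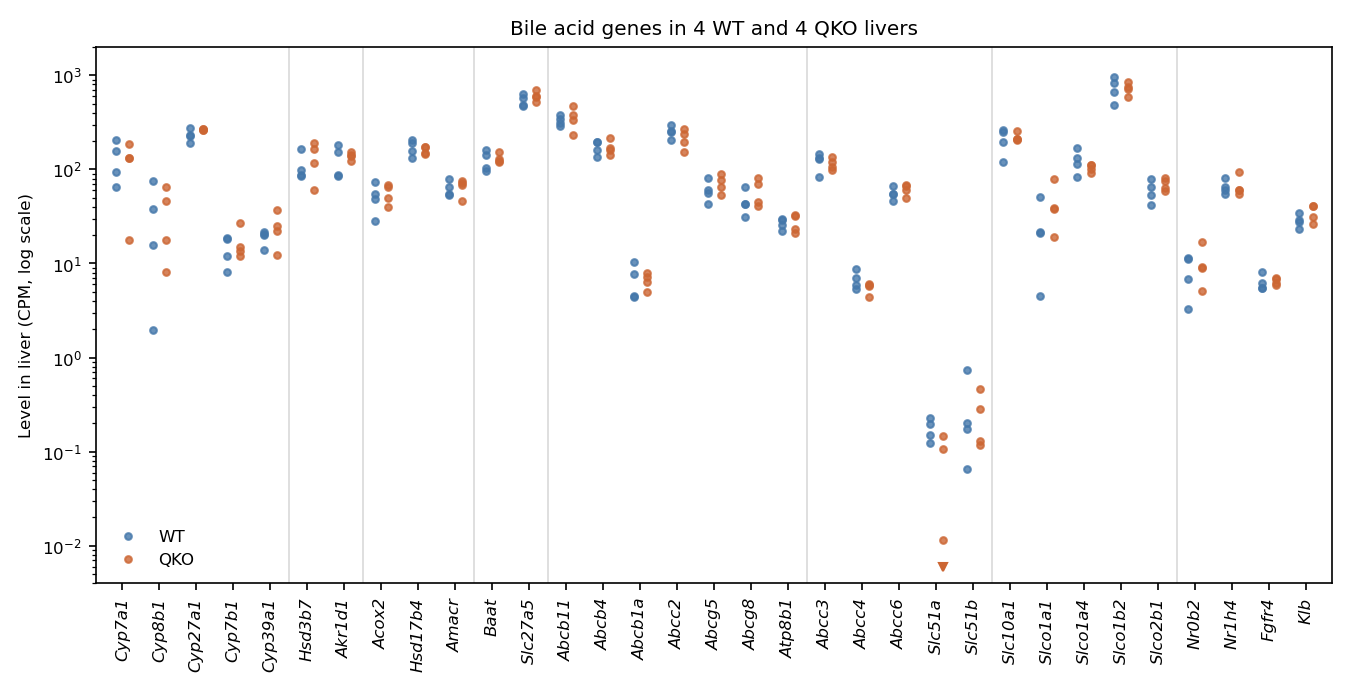
CPM of the 33 genes in each of the 8 livers, grouped by role, on a log axis, with 1 point per library (WT and QKO in separate colours) and a triangle for a library with no counts (Slc51a in QKO liver 3). The points of WT and QKO overlap for every gene, and the points of Cyp8b1 lie farthest apart, from 1.98 to 75.6 CPM.

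The 300 bases around the annotated start were read for the gene with the widest spread and for a pair of adjoining genes, 250 bases before it and 50 after, from RefSeq on GRCm38.p6. Windows were matched for 23 of the 33 genes. Cyp8b1 is the sterol 12-alpha-hydroxylase, which sets how much cholic acid is made. Its window on the minus strand, chr9:121916256-121916555, is shown since it was the gene that varied most between livers. Capitals mark CAAAGTCCA, the letters of a motif of the hepatocyte factor HNF4A, searched on both strands. Some genes have several windows, 29 for the 23 members. This motif was present in 1 of the 29 and in 0.475% of all 32851 windows of that length.
Cyp8b1: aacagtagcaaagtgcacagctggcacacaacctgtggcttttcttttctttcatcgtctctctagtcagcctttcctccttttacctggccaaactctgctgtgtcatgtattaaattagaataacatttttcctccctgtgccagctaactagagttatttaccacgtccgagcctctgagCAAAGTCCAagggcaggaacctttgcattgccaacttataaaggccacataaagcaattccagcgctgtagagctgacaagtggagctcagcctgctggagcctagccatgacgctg
Abcg5 and Abcg8, the subunits of the sterol pump that sends cholesterol and plant sterols into bile, start 110 bases apart on opposite strands of chromosome 17. Their windows share 209 of 300 bases, and the window of Abcg8 on the plus strand, chr17:84682871-84683170, is shown since it serves both genes. Capitals mark AGATAA and its reverse complement TTATCT, the letters of a GATA factor motif, with 3 matches that the window of Abcg5 holds as well. AGATAA on either strand occurred in 11.2% of all windows and in 3 of the 29, 1 each of Abcg5, Abcg8 and Nr1h4. AGGTCA, the hexamer that many nuclear receptors bind, occurred in 16.3% of all windows and in 9 of the 29, 1 each of Abcb11, Abcc2, Akr1d1, Nr1h4, Slc10a1, Slc51a, Slc51b, Slco1a1 and Slco1b2. A match of letters is not a binding site.
Abcg8: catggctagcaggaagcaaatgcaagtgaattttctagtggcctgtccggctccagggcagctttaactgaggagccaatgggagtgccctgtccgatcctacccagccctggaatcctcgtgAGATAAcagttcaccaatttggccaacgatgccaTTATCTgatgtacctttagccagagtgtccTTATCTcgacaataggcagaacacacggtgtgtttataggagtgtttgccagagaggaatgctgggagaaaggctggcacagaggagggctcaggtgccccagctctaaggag

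The comparison of QKO with WT liver asks whether loss of the reductases goes with a change in this RNA programme. Of the 33 members, all tested, 0 passed an adjusted p of 0.05 (edgeR quasi-likelihood F test, Benjamini-Hochberg over 17738 genes), and 0 had an unadjusted p under 0.05, against 3.29% of all genes. Over all genes tested, 15 passed, which is 0.0846%. Fitted values were higher in QKO for 22 members and lower for 11, with a median log2 change of 0.0689 against -0.0059 over all genes. The WT and QKO libraries overlapped for all 33, while 2.12% of all genes tested had groups that did not overlap. For 27 members the 95% interval of the change lay within 2-fold in either direction, and for Cyp7a1, Cyp8b1, Slc51a, Slc51b, Slco1a1 and Nr0b2 it did not. Without WT livers 3 and 4 the split turned to 11 higher and 22 lower, with a median of -0.11, and 0 members passed. Cyp7a1 then stood at -0.64, Cyp8b1 at -0.71, Slc10a1 at -0.21, Akr1d1 at -0.26 and Nr0b2 at -0.15, against the values over all 8 livers given below. In bulk tissue, fewer cells of a type and less RNA per cell cannot be told apart.

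**Figure D2:**
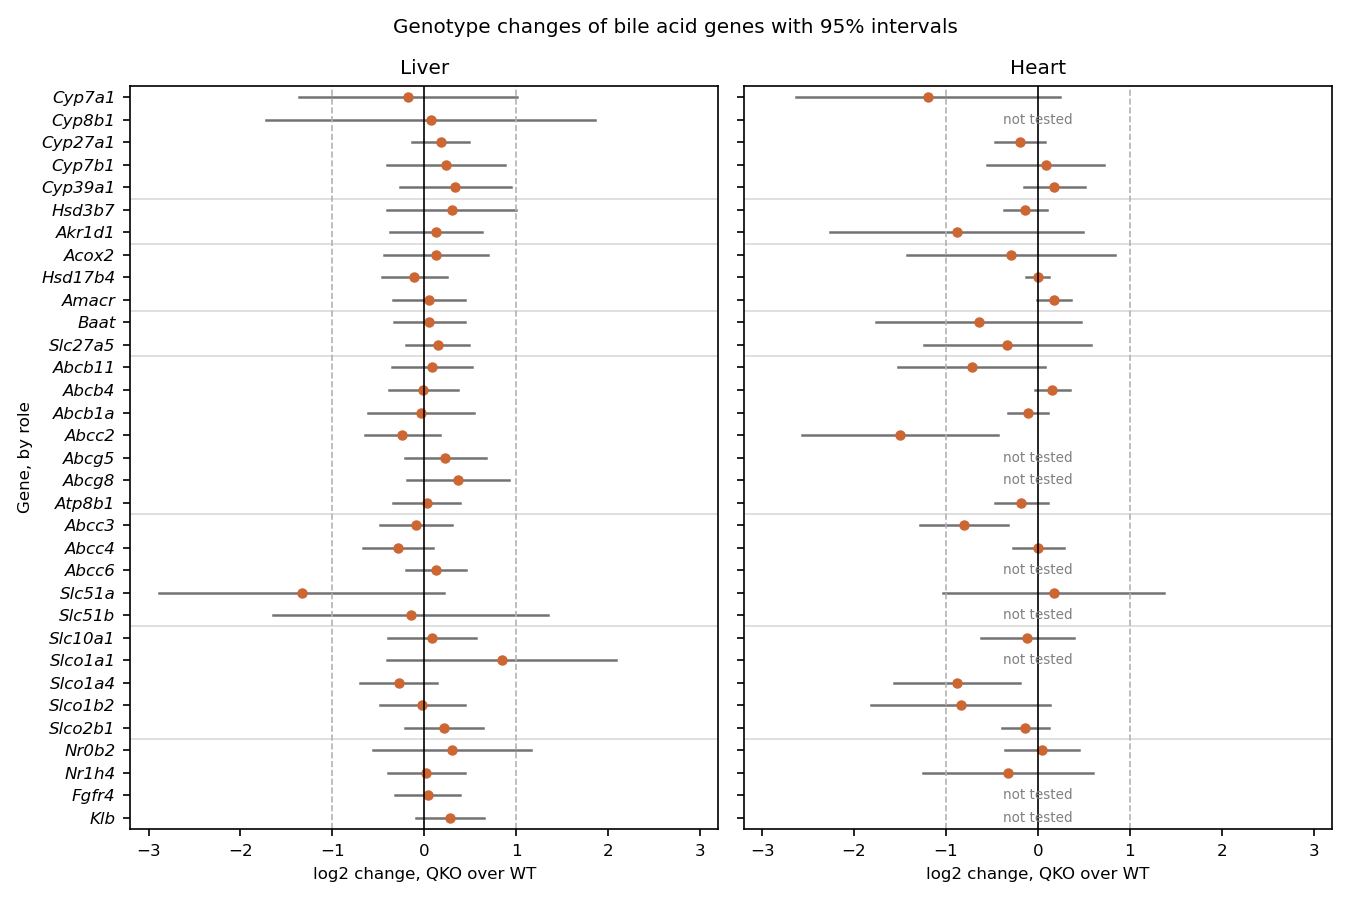
Log2 change of each member in QKO over WT, in liver (33 genes) and in heart (25 genes tested and 8 marked as not tested), as a point with its 95% interval. Dashed lines mark 2-fold, and the widest liver intervals are those of Cyp8b1, Slc51a and Slc51b.

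Among the ring hydroxylases, Cyp7a1 (ENSMUSG00000028240.2, chr4:6265612-6275633, GRCm38) read 208, 158, 94.9 and 64.7 CPM in WT livers 1 to 4 and 132, 17.6, 184 and 131 CPM in QKO livers 1 to 4. The range of QKO enclosed that of all WT livers but the highest, with QKO liver 2 far below the rest. Its log2 change was -0.18 (SE 0.54, 95% interval -1.37 to 1.01, edgeR adjusted p 0.9997), and all other members of the module had that same adjusted p in liver. Values given below for a gene with its SE alone are likewise log2 changes of QKO over WT. Cyp8b1 (ENSMUSG00000050445.4, chr9:121914356-121916305) read 37.5, 75.6, 15.9 and 1.98 CPM in WT and 64.8, 17.6, 46.6 and 8.04 CPM in QKO. Each genotype had its lowest value in liver 4, and the log2 change of 0.07 (SE 0.82) had an interval of -1.72 to 1.86, more than 2-fold in each direction. Cyp27a1, by contrast in spread, read 235, 279, 226 and 189.6 CPM in WT and 267, 266, 259 and 263 CPM in QKO. Its QKO livers lay close together inside the WT range, with a log2 change of 0.18 (SE 0.14, interval -0.13 to 0.49). The oxysterol 7-alpha-hydroxylase Cyp7b1 of the alternative route gave 0.24 (SE 0.29) and Cyp39a1, which hydroxylates 24-hydroxycholesterol, 0.34 (SE 0.28).

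The enzymes of ring conversion, side chain shortening and conjugation had fitted values between -0.11 and 0.30. Akr1d1, the reductase that saturates the ring, read 181, 155, 85.4 and 88.2 CPM in WT and 124, 142, 153 and 139 CPM in QKO. All 4 QKO livers fell between the upper and the lower pair of WT livers, and the log2 change was 0.13 (SE 0.23). Slc27a5 read 626, 581, 477 and 482 CPM in WT and 590.2, 691, 516 and 608 CPM in QKO, with a log2 change of 0.14 (SE 0.15). Baat gave 0.05 (SE 0.18), and so did the racemase Amacr, which prepares the side chain for oxidation (SE 0.18). The peroxisomal oxidase Acox2 gave 0.13 (SE 0.26) and Hsd17b4, the multifunctional enzyme of the next steps, -0.11 (SE 0.16). Hsd3b7, which oxidises the ring at carbon 3, gave 0.30 (SE 0.32). This gene is uncertain, because 1717 of its exon bases are also annotated to Gm49388 on the same strand and 1729 to 9430064I24Rik on the other. In WT liver 2 both Hsd3b7 and Gm49388 had 14881 counts.

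On the canalicular face, Abcb11 read 379, 344, 292 and 311 CPM in WT and 382, 469, 229.8 and 334 CPM in QKO. The highest and the lowest of the 8 livers were both QKO, and the log2 change was 0.08 (SE 0.20, interval -0.36 to 0.52). Abcc2, which exports conjugated bilirubin and sulfated bile acids, gave -0.24 (SE 0.19). The phospholipid floppase Abcb4 gave -0.01 (SE 0.17), the drug pump Abcb1a -0.04 (SE 0.26) and the aminophospholipid flippase Atp8b1 0.03 (SE 0.17). The subunits of the sterol pump gave similar values, 0.23 (SE 0.20) for Abcg5 and 0.37 (SE 0.25) for Abcg8. Abcg8 read 42.9, 65.3, 43.2 and 31.0 CPM in WT and 80.8, 70.1, 45.2 and 41.0 CPM in QKO, with 2 QKO livers above every WT liver and the other 2 within the WT range. The pair share 82 exon bases on opposite strands, and reads there cannot be assigned since the strand setting of the counting was not stated.

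On the basolateral face, the sodium-dependent carrier Slc10a1 read 265, 249, 195 and 119 CPM in WT and 255, 209, 208 and 213 CPM in QKO. The lowest was WT liver 4, and the log2 change was 0.09 (SE 0.22, interval -0.39 to 0.56). Slco1a1, an organic anion carrier, read 4.46, 50.4, 21.3 and 21.5 CPM in WT and 37.9, 18.9, 79.3 and 39.3 CPM in QKO. Its QKO libraries were mostly the higher, but the groups overlapped, and the change of 0.84 (SE 0.57, interval -0.41 to 2.09) did not pass. The related carriers gave -0.28 (SE 0.19) for Slco1a4, -0.02 (SE 0.21) for Slco1b2 and 0.21 (SE 0.19) for Slco2b1. Slco1a genes are close paralogs, so reads may be split between them. Of the efflux pumps, Abcc3 gave -0.09 (SE 0.18), Abcc4 -0.29 (SE 0.17) and Abcc6, which is best known for its part in mineralisation, 0.13 (SE 0.15). Slc51a was near its detection limit, with 6, 18, 14 and 15 counts in WT and 1, 12, 0 and 9 in QKO. The change of -1.33 (SE 0.71) had the largest size of all members, and its interval of -2.88 to 0.22 included 0. Slc51b had 6 to 36 counts in WT and 6 to 38 in QKO, with a change of -0.15 (SE 0.68).

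Of the control genes, Nr0b2 read 11.2, 11.4, 6.80 and 3.30 CPM in WT and 5.14, 9.03, 16.9 and 9.27 CPM in QKO. Its ranges overlapped, with a log2 change of 0.30 (SE 0.39, interval -0.56 to 1.16). Nr1h4 gave 0.02 (SE 0.19), Fgfr4 0.04 (SE 0.16), and Klb, the co-receptor of Fgfr4, 0.28 (SE 0.17). Fgf15, the gut hormone gene that acts on this pair, had 0 counts in all libraries.

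Members differed widely in their spread between animals of the same genotype. The pooled SD of log2 CPM within genotype was 1.87 for Cyp8b1, 1.22 for Cyp7a1, 1.19 for Slco1a1 and 0.77 for Nr0b2. Hsd3b7 at 0.61, Cyp7b1 at 0.53 and Cyp39a1 at 0.51 were also above 0.499, the 90th percentile of the 13308 liver genes at 1 CPM or more. In all, 24 of the 31 members at that level exceeded the median of 0.257. The tightest were Cyp27a1 at 0.153 and Slc27a5 at 0.173, the enzymes with levels among the highest. For Cyp8b1 the highest WT liver was 38.2 times the lowest, or 4.75 times without WT liver 4, and the highest QKO liver 8.07 times the lowest. For Cyp7a1 these ratios were 3.21 in WT and 10.4 in QKO, or 1.41 in QKO without QKO liver 2, and for Cyp27a1 they were 1.47 and 1.03. Without WT livers 3 and 4, 6 members were above the 90th percentile and 17 above the median, with SDs of 1.24 for Cyp8b1, 1.36 for Cyp7a1 and 1.44 for Slco1a1. Without QKO liver 2 the SD of Cyp7a1 was 0.60.

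**Figure D3:**
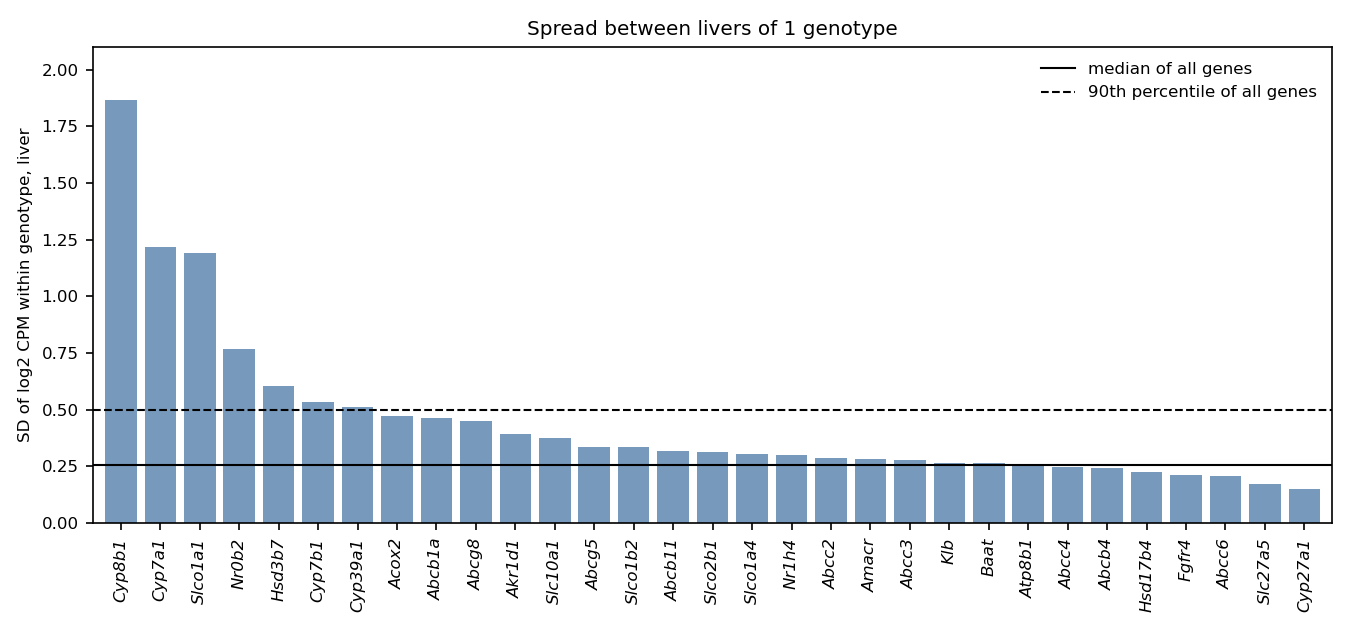
Pooled SD of log2 CPM within genotype over the 8 livers for the 31 members at 1 CPM or more, with lines at the median (0.257) and the 90th percentile (0.499) of all liver genes at that level. Cyp8b1, Cyp7a1 and Slco1a1 lie far beyond the upper line and Cyp27a1 is the lowest.

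The animal numbers in the labels fall into a 47 and a 48 series, with WT and QKO in each. Within them the change of Cyp7a1 was -1.91 in series 47 and 0.99 in series 48, that of Cyp8b1 -0.65 and 1.77, and that of Nr0b2 -0.72 and 1.39, as log2 of QKO over WT. These 3 genes thus had opposite signs in the 2 series, while Slco1a1 had the same sign, at 0.83 and 1.38. The WT animals of series 48 are WT 3 and 4, so its liver values rest on the 2 livers with foreign transcripts. Of the 33 members, 12 had the same sign in both series in liver and 16 in heart, and the share over all genes was not computed. The difference between the series was tested as an interaction of series and genotype over the 8 livers (edgeR). There 0 of 33 members passed, beside 10 of 19149 genes. The smallest p was that of Akr1d1, at 1.09 (SE 0.27, edgeR adjusted p 0.384). Cyp7a1 gave 2.26 (SE 0.92, adjusted p 0.654) and Nr0b2 2.03 (SE 0.54, adjusted p 0.421). In the hearts 0 of 29 members passed this interaction, beside 27 of 18301 genes, with Akr1d1 at 3.19 (SE 0.83, edgeR adjusted p 0.214). Within each series, 2 animals against 2, 0 members passed in liver. Over all genes 15 of 18187 passed in series 47 and 33 of 17879 in series 48. The median log2 change of members in liver was -0.0784 in series 47 and 0.22 in series 48.

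**Figure D4:**
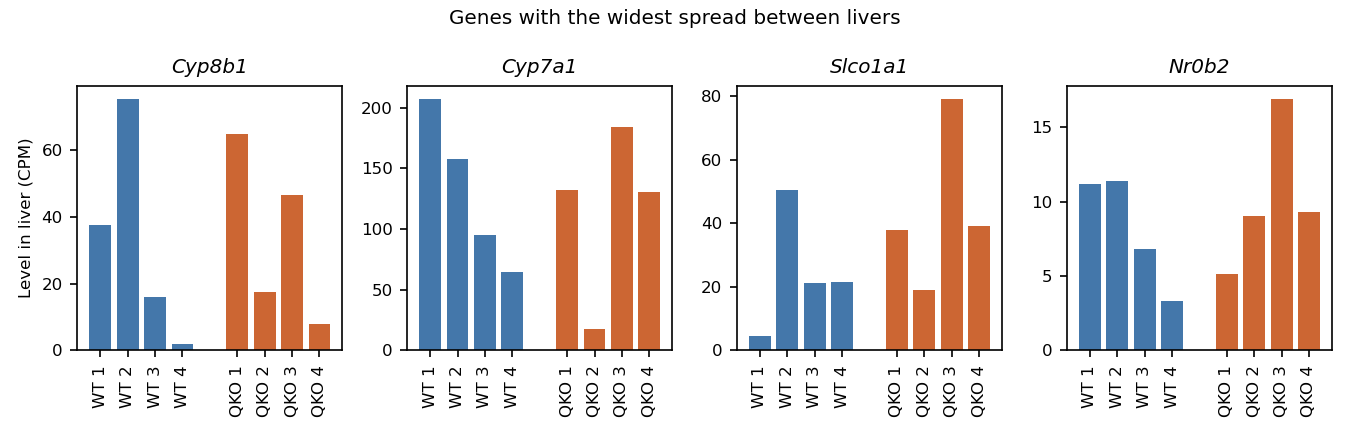
CPM of Cyp8b1, Cyp7a1, Slco1a1 and Nr0b2 in each of the 8 livers by genotype and replicate. The lowest liver differs from gene to gene, with WT liver 4 the lowest for Cyp8b1 and Nr0b2, QKO liver 2 for Cyp7a1 and WT liver 1 for Slco1a1.

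Ratios between members within a liver, which do not depend on library scaling, were compared for 4 pairs. The counts of Cyp7a1 over Cyp7b1, the ring hydroxylases of the classic and alternative routes, were 11.1, 8.77, 7.82 and 7.94 in WT and 8.83, 1.29, 6.90 and 10.9 in QKO. A single liver, QKO liver 2, stood far from the others, and the log2 difference of QKO minus WT was -0.71, or -0.0165 without it and -0.87 without WT livers 3 and 4 (two-sided exact permutation test over 70 relabellings, p = 0.457, adjusted over the 4 ratios 0.610). Cyp8b1 over Cyp7a1 gave a log2 difference of 1.03 (exact permutation p = 0.400, adjusted 0.610). That liver was again at the extreme, with 1438 counts of each gene, and without WT livers 3 and 4 the difference was 0.0071. Slco1a1 over Slco1a4 gave 1.34 (exact permutation p = 0.143, adjusted 0.571), with 0.63 without WT liver 1 and 1.90 without WT livers 3 and 4. Abcb11 over Slc10a1, export over uptake, gave -0.10 (exact permutation p = 0.743), with 0.15 without WT livers 3 and 4. The smallest p these groups allow is 0.0286.

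Cyp7a1 was also set against 3 genes across the 8 livers after removal of group means. The permutations, all counted, ran over the 8 livers and not within genotype, so their p-values are approximate after that removal. With Cyp8b1, Pearson's r was 0.48 (exact permutation p = 0.235) and Spearman's rho 0.50 (exact permutation p = 0.216), and r was 0.20 without WT liver 4 and QKO liver 2, the livers farthest out. With Nr0b2, r was 0.41 (exact permutation p = 0.316) and rho 0.57 (exact permutation p = 0.151), and r without those livers was 0.39. With Dbp, a clock output factor that acts on the Cyp7a1 gene, r was -0.46 (exact permutation p = 0.254) and rho -0.45 (exact permutation p = 0.267), and r without those livers was -0.24. None of the 3 passed after adjustment, at 0.316 for r and 0.267 for rho. Dbp itself read 31.1, 52.2, 34.2 and 37.9 CPM in WT liver and 61.8, 56.2, 25.3 and 23.8 CPM in QKO liver, a log2 change of 0.09 (SE 0.30). Nr1d1, another clock gene, ran from 3.53 to 5.05 CPM in WT and from 2.81 to 7.30 CPM in QKO, a change of 0.18 (SE 0.29).

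In the wider pathway, too, no gene passed. Of 81 further genes listed for synthesis, transport and control, 72 were tested in liver, with 39 higher, 33 lower, 0 past the threshold and a median log2 change of 0.018. The smallest p-values belonged to Foxa2, a hepatocyte factor that acts on bile acid genes, to the hormone gene Fgf21 and to the carrier-like gene Slc10a5. Foxa2 ran from 6.14 to 7.98 CPM in WT and from 6.93 to 18.6 CPM in QKO, with a log2 change of 0.77 (SE 0.26). Fgf21 gave 1.13 (SE 0.52) and Slc10a5 -0.26 (SE 0.14), all at an edgeR adjusted p of 0.9997. The exception next to the module was the Sult2a family, sulfotransferases that add sulfate to bile acids and other steroids, of which 2 of 8 rose in QKO liver. The sum of all 8 overlapped between genotypes, at 253 to 641 CPM in WT and 302 to 675 CPM in QKO. Most of it came from Sult2a8 (means of 181 and 231 CPM) and Sult2a1 (132 and 160 CPM), which did not pass. Sult2a6 read 0.0409, 0.0880, 0.0108 and 0 CPM in WT and 6.51, 5.72, 9.03 and 21.4 CPM in QKO, a log2 change of 8.11 (SE 0.67, edgeR adjusted p 2.97e-04). Sult2a4 read 0.231 to 0.471 CPM in WT and 3.17 to 10.5 CPM in QKO, a change of 4.11 (SE 0.41, edgeR adjusted p 0.00190). Without WT livers 3 and 4 both still passed, at 7.22 (adjusted p 0.0104) and 4.06 (adjusted p 0.0457). WT and QKO livers did not overlap for either gene, though reads of near-identical Sult2a copies may be split between them. Abcc2 and Abcc4, which carry sulfated bile acids out of the cell, had the lower mean in QKO and did not pass.

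Most members were far higher in liver than in the hearts of the same animals. In WT animals 29 of the 32 tested were higher in liver (edgeR adjusted p under 0.05), against 36.9% of all genes, and 23 of them by 10-fold or more, against 8.57%. Without WT livers 3 and 4 the count was 31 of 33. None was higher in WT heart, where 35.6% of all genes were, 2 members having the higher fitted value there (Abcc4 and Slc51a). In QKO animals 29 of 32 were again higher in liver, against 37.1% of all genes, and 23 by 10-fold or more, against 8.74%. The median log2 difference of liver over heart was 6.81 in WT and 7.30 in QKO, against 0.0247 and -0.0094 over all genes. Cyp7a1 had 9 to 58 counts in WT hearts and 3 to 17 in QKO hearts, and its log2 difference was 7.84 (SE 0.71) in WT and 8.84 (SE 0.75) in QKO. Baat, at 8.23 (SE 0.48) and 8.91 (SE 0.21), stood as high, and Slc10a1 was at 6.93 (SE 0.37) and 7.12 (SE 0.16).

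A second set of members was shared by both tissues. Hsd17b4, whose enzyme also shortens fatty acids in peroxisomes, was the highest member in WT heart at 8.79 ± 0.368 CPM per kb, and liver exceeded it by only 5.69-fold in WT and 5.24-fold in QKO. It was followed in WT heart by Amacr at 3.67 ± 0.171 and Cyp27a1 at 2.52 ± 0.373 CPM per kb. Liver exceeded heart in WT by 6.55-fold for Amacr but by 42.1-fold for Cyp27a1, which is thus outside this shared set. Abcb1a, the drug pump also found in blood vessels, did not pass in either genotype, with a log2 difference of 0.01 (interval -0.55 to 0.57, edgeR adjusted p 0.982) in WT and 0.07 (interval -0.26 to 0.40, adjusted p 0.697) in QKO. Over 17 alternatives in WT the difference of Abcb1a ran from -0.26 to 0.45 and changed sign in 10. It passed in 1, the fit without WT livers 3 and 4, where it was higher in liver (edgeR adjusted p 0.0149). It read 10.4, 7.75, 4.42 and 4.46 CPM in WT livers 1 to 4 and 6.39 to 7.30 CPM in WT hearts. Abcc4, an exporter of cyclic nucleotides as well as bile acids, was higher in heart in QKO, with a log2 difference of liver over heart of -0.47 (SE 0.14, edgeR adjusted p 0.0080). In QKO it read 4.41 to 6.01 CPM in liver and 6.70 to 8.72 CPM in heart. In WT its difference was -0.16 (adjusted p 0.431). Slc51a was also higher in QKO heart (-2.20, SE 0.69, edgeR adjusted p 0.0115), at 3, 14, 10 and 39 counts against the 0 to 12 of QKO liver. These were 2 of the 32 members, where 37.2% of all genes were higher in QKO heart. The call of Slc51a was lost without QKO heart 4 (adjusted p 0.0534), the heart with little ribosomal RNA, and 567 of its exon bases are shared with Pcyt1a on the other strand.

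Heart levels were also taken as a percent of the level in the liver of the same animal. The hepatocyte marker sum in heart was 0.795%, 0.507%, 0.442% and 0.164% of that in liver in WT animals 1 to 4, and 0.380%, 0.292%, 0.227% and 0.177% in QKO animals. Slco1b2, a carrier known from hepatocytes, gave 0.563%, 0.543%, 0.413% and 0.166% in WT and 0.399%, 0.242%, 0.214% and 0.179% in QKO. For Slco1b2, and likewise for Abcc2, the animals of each genotype fell in the same order as for the marker sum. In WT that order was also kept by Abcg8, Slco1a1 and Nr1h4, but not by Cyp7a1, Akr1d1, Slc27a5 or Abcb11. For 18 of the 33 members the median percent lay inside the range of the marker sum, 0.164% to 0.795%, among them Akr1d1 at 0.202%, Cyp7a1 at 0.303%, Slc27a5 at 0.350% and Abcb11 at 0.352%. The other 15 lay above it, from Abcc3 at 1.24% and Cyp27a1 at 1.99% through Hsd17b4 at 18.1% and Nr0b2 at 21.1% to Abcb1a at 89.1%, Abcc4 at 129% and Slc51a at 274%. The value of Slc51a rests on few counts and leaves out QKO animal 3, whose liver had 0 counts. Set against the marker sum of the same animal, 18 members were above it in all 8 animals. Among them were Acox2, Abcc2, Slc10a1, Slco1a4 and Nr1h4, whose medians lay inside the range. The source of the hepatocyte transcripts in heart was not tested.

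**Figure D5:**
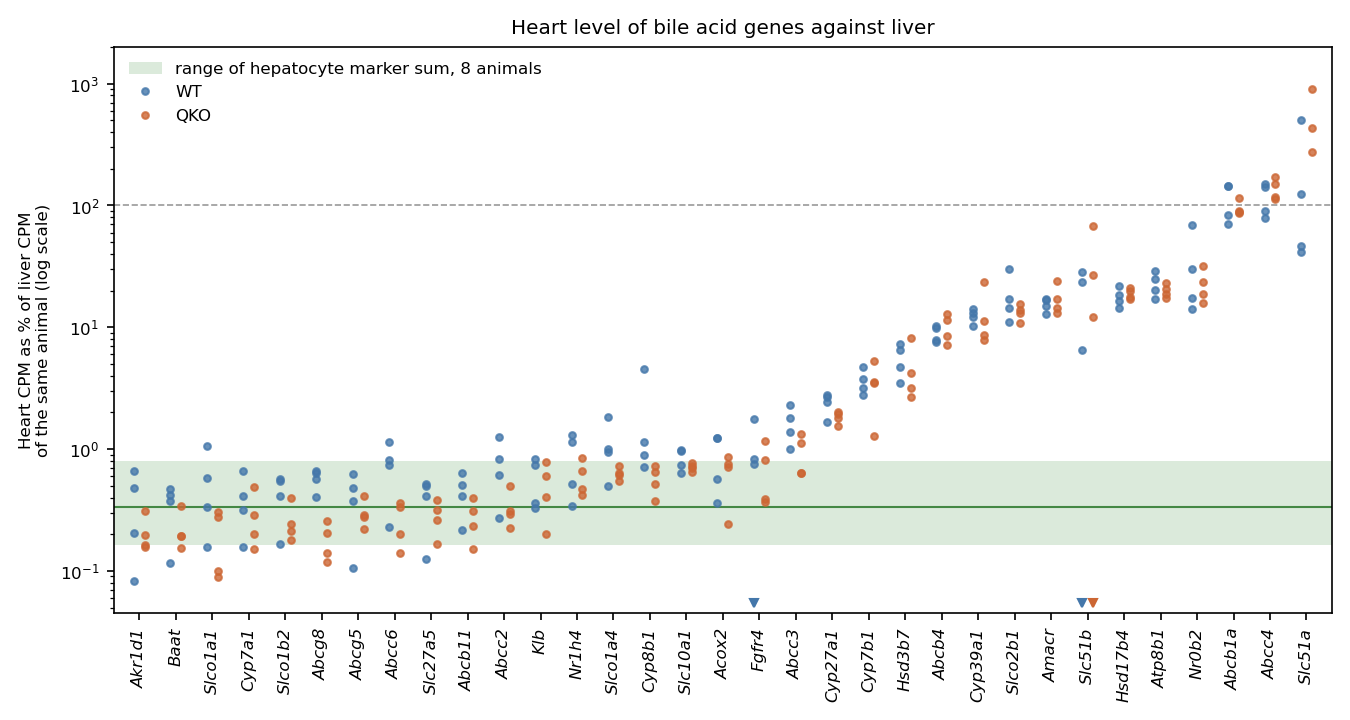
Heart CPM as a percent of liver CPM in the same animal, on a log axis, for the 33 members in order of their median, with 1 point per animal, triangles for hearts with no counts, and a band for the range of the hepatocyte marker sum (0.164% to 0.795%, line at the median of 0.336%). The medians of the members in the lower part sit in the band and those from Abcc3 to Slc51a rise above it.

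In heart, 25 members had enough counts to be tested, and those left out were Cyp8b1, Abcg5, Abcg8, Abcc6, Slc51b, Slco1a1, Fgfr4 and Klb. Between the genotypes 0 passed (edgeR quasi-likelihood test over 16974 genes), while 28 of all genes did, which is 0.165%. An unadjusted p under 0.05 was found for 3, against 7.19% of all genes. Fitted values were lower in QKO for 18 and higher for 7, with a median log2 change of -0.18 against -0.0013 over all genes. That median was -0.45 without WT heart 4, -0.0571 without WT heart 1, and -0.30 without both hearts of replicate 4, those with little ribosomal RNA. Of the 25 intervals 13 lay within 2-fold.

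The lowest fitted values were mostly those of members under 1% of their liver level. Abcc2 read 3.77, 2.12, 1.52 and 0.567 CPM in WT hearts and 1.19, 0.835, 0.452 and 0.441 CPM in QKO hearts. The genotypes overlapped through WT heart 4, and the log2 change was -1.50 (SE 0.50, unadjusted p 0.00948, edgeR adjusted p 0.596). Without the filter on low counts it passed, at -1.49 with an adjusted p of 0.0266. The carrier Slco1a4 gave -0.88 (SE 0.32, edgeR adjusted p 0.660) and Slco1b2 -0.84 (SE 0.45, edgeR adjusted p 0.736). Beside these, all 22 hepatocyte markers had the lower fitted value in QKO heart, with a median of -0.66 and 0 past the threshold. Their sum was 484, 330, 245 and 86.0 CPM in WT hearts and 264, 182, 144 and 110 CPM in QKO hearts. In series 47 alone (replicates 1 and 2), 2 of 29 members passed, Abcc2 and Slco1b2, at -1.58 and -1.03 (edgeR adjusted p 0.0288 and 0.0285). Over all genes 108 of 16322 passed there. In series 48 alone 0 of 26 members passed, beside 37 of 18244 genes. Taking a line at 1% of the liver level, drawn after the values were seen, the 11 tested members with a median under it were all lower in QKO, with a median log2 change of -0.72. By series, all 11 were lower in series 47. In series 48, Cyp7a1 (0.32), Akr1d1 (1.18), Baat (0.12), Slc27a5 (0.086), Slc10a1 (0.18) and Nr1h4 (0.38) were higher in QKO and the rest lower. Of the 14 above it, 7 were lower and 7 higher, with a median of 0.00085. The same hearts gave both the percent and the change, so members are not independent and this split is not a test. The part of the hepatocyte transcripts in these changes was not tested.

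Abcc3, a basolateral pump that carries conjugates, was the member with the smallest p in heart (ENSMUSG00000020865.16, chr11:94343295-94392997). It read 1.81, 1.45, 2.33 and 1.92 CPM in WT hearts and 0.767, 0.863, 1.12 and 1.44 CPM in QKO hearts. Every QKO heart was below every WT heart, the highest QKO heart only just. Abcc3 was the 1 member of 25 whose groups did not overlap in heart, against 4.67% of all genes. The log2 change was -0.80 (SE 0.22, unadjusted p 0.00317), and it did not pass over all genes (edgeR adjusted p 0.420). As a percent of liver it was 0.999% to 2.28% in WT and 0.634% to 1.34% in QKO. This was above the hepatocyte marker sum of the same heart in all 8 animals. The same held for 18 members in all, Abcc2 and Slco1a4 among them, so it does not set Abcc3 apart from those 2. All 11 tested macrophage markers were also lower in QKO heart, with a median of -0.458 and sums of 114 to 142 CPM in WT and 91.2 to 105 CPM in QKO, and their part in the value of Abcc3 was not tested.

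The narrowest interval in heart was that of Hsd17b4. It read 29.1, 30.2, 31.5 and 28.7 CPM in WT and 29.5, 29.2, 30.3 and 30.4 CPM in QKO. All 8 hearts fell in a narrow band, and the interval of the log2 change ran from -0.13 to 0.12. Amacr gave 0.17 (SE 0.09) and Abcb4 0.16 (SE 0.09), and Cyp27a1 gave -0.19 (SE 0.13). Of the 81 further pathway genes, 65 were tested in heart, with 22 higher, 43 lower, 0 past the threshold and a median of -0.068. The smallest p-values were those of Hnf4a (-1.12, SE 0.34, edgeR adjusted p 0.501), Cyp2a12 (-1.08, SE 0.41, adjusted p 0.660) and the epoxide hydrolase Ephx1 (-0.25, SE 0.095, adjusted p 0.660). Hnf4a encodes the hepatocyte factor whose motif was searched above and read 2.29, 1.66, 1.17 and 0.680 CPM in WT hearts and 0.533 to 0.767 CPM in QKO hearts.

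The difference of the genotype effect between tissues, liver minus heart, was tested for all 33 members in a fit of the 16 libraries, without a term for the animal. None passed (edgeR adjusted p 0.9999 for each), against 0.00511% of the 19587 genes. The difference was above 0 for 28 members and below 0 for 5, with a median of 0.344 against 0.0013 over all genes. It was also above 0 for all 22 hepatocyte markers, with a median of 0.767 and 0 past the threshold. With the animal as a block 0 members passed as well, the lowest adjusted p being 0.523. An unadjusted p under 0.05 was found for 4 members, against 4.0% of all genes, and these were Abcc6 at 1.41 (SE 0.52), Abcc3 at 0.71 (SE 0.29), Abcg8 at 1.59 (SE 0.67) and Abcc2 at 1.27 (SE 0.57). All 4 had the lower mean in QKO heart, and Abcc6 and Abcg8 had 2 to 17 counts per heart.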

How the data were processed

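The authors deposited raw counts, as whole numbers per Ensembl gene, of ribosome-depleted total RNA from TRIzol extracts, made into TruSeq stranded libraries and read as pairs of 75 bp, per the labels' protocols. Per the submitters' processing notes the tools were HISAT2, featureCounts, cutadapt, limma, FastQC, CASAVA and bcl2fastq, on mm10. The annotation release and the strand setting are not given in the sources used here. Symbols, positions and exon lengths came from GENCODE M21 (GRCm38, which is mm10), where 48349 identifiers matched and 360 did not. All 16 columns were mapped from the labels.

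The genotype tests took 8 libraries of a tissue, and the tissue tests 8 of a genotype, in edgeR 4.0.16 (R 4.3.3) with its filter by group, TMM scaling and the quasi-likelihood F test. Adjusted p is Benjamini-Hochberg over all genes tested, with a threshold of 0.05. SE is the size of the log2 change over the square root of F. Ratios and correlations used exact permutation tests (SciPy 1.17.1 under Python 3.11.15), which are approximate for the correlations after removal of group means. The fits were tested on simulated data. All 33 members were named. Further genes were named where they passed in a genotype test, otherwise the 3 of smallest p per tissue, with Sult2a4, Sult2a6, Dbp and Nr1d1. Fgf15, the Msr genes, Pcyt1a and genes overlapping a member were named outside that rule. The members and lists were chosen with earlier results of these data known.

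Liver and heart of a number come from the same animal, per the labels. Deviations from group means correlated at 0.067 to 0.169 over 10753 genes, which are not independent replicates. The tissue tests were repeated with the animal as a block. Alternatives were DESeq2 1.42.0, limma-voom (limma 3.58.1), RLE and upper-quartile scaling, other filters, protein-coding genes only, all 16 libraries in 1 fit, an animal series term, a replicate block, and libraries left out. Scaling over all 16 libraries set the printed CPM, and fold changes came from the fits named.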

Additional observations from a re-analysis of the deposited data

Results flagged for a closer look

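In 7 of 132 groups of 4 values, 1 library lay far from the other 3 by Dixon's 95% criterion, where chance gives about 1 in 20. In liver, Nr1h4 was 93.1 CPM in QKO liver 3 against 54.6 to 60.3 CPM in the others. The same liver was low for Abcc4, at 4.41 against 5.79 to 6.01 CPM. Slc10a1 was 254.6 CPM in QKO liver 1 against 208 to 213 CPM. In heart, Akr1d1 was 0.479 CPM in QKO heart 3, which is 18 counts, against 0.220 to 0.244 CPM. Slco1a1 was 0.290 CPM in WT heart 2, which is 7 counts, against 0.0340 to 0.0707 CPM. Abcb1a was 7.30 CPM in WT heart 1 against 6.39 to 6.46 CPM, and Slco2b1 was 12.5 CPM in WT heart 4 against 8.87 to 9.30 CPM.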

How the results depend on the processing

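In liver 0 members passed in any of the 21 alternatives, the lowest adjusted p being 0.382. Of 690 values, 81 changed sign. The liver median log2 change of members was 0.0488 to 0.13 under the other tools, scalings and filters, but -0.0113 without WT liver 4. In heart 3 of 514 values passed, that of Abcc2 without the filter (-1.49, adjusted p 0.0266) and the 2 of series 47, so that 1 and 2 members passed there. Of these values 36 changed sign. The heart median ran from -0.45 (without WT heart 4) to -0.0571 (without WT heart 1) as each library was left out, and was -0.40 in series 47 and -0.0315 in series 48. The liver count of 15 genes over all genes became 50 with DESeq2, 9 with protein-coding genes only, 44 with all 16 libraries in 1 fit and 33 in series 48. The heart count of 28 became 64 with DESeq2, 102 without the filter, 16 with all 16 libraries in 1 fit and 108 in series 47. It was 18 to 25 with a library left out, lowest without QKO heart 2 or QKO heart 4. The causes were not tested.

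Replicate numbers of WT and QKO, correlating at -0.106 to 0.165 in liver and 0.0514 to 0.463 in heart, mark different animals and did not pair them. With a replicate block the liver count was 16 and the heart count 50, with 0 members in each. With the animal as a block 29 members were higher in liver in both genotypes, as without it. The fits within a series, and the tissue, interaction and spread results with livers 3 and 4 or QKO liver 2 left out, were chosen after seeing the data. Cyp8b1, Abcg5, Abcg8, Abcc6, Slc51a, Slc51b, Slco1a1, Fgfr4 and Klb had too few heart counts for levels to be read closely.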
